A study of Mus musculus with 4 samples.

Results

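Measured here were 8 arms of 2 microRNA (miRNA) clusters, miR-17-92 and miR-106b-25, in sorted interstitial cells of Cajal (ICC). They were chosen by name: miR-17-5p, miR-20a-5p, miR-19b-3p and miR-92a-3p of the first cluster, and miR-106b-5p, miR-106b-3p, miR-93-5p and miR-25-3p of the second. All 8 were among the 982 entries of the deposited table. ICC generate the slow electrical waves that pace gut contraction, and they depend on the receptor tyrosine kinase Kit. Small RNA was sequenced in 4 libraries. Jejunum and colon of leptin-deficient Lep ob/ob mice, labelled diabetic, gave 1 library each, and so did jejunum and colon of Lep ob/+ mice, labelled healthy and wild type although they carry 1 ob allele. All mice were C57BL/6, aged 11 to 20 weeks and heterozygous for the Kit copGFP reporter allele (KitcopGFP/+), by whose fluorescence the cells were sorted from dissociated whole jejunal or colonic tissue. Each library was a pool of material of the same genotype (15 each, per the labels), so the differences between animals cannot be seen and values within a tissue have no replicates.

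A miRNA is cut from a hairpin whose 2 strands give a 5p and a 3p arm, and it recognises target messenger RNAs mainly through its seed, bases 2 to 8. The miR-17-92 cluster is transcribed as 1 polycistron and is known for promoting cell proliferation and survival, above all in lymphocytes and tumours, where Myc can drive its expression. The miR-106b-25 cluster is its paralog and is made from introns of Mcm7, which encodes a subunit of the replicative helicase. The arms of both clusters fall into seed families that are known to act on partly different targets, such as Cdkn1a and Bcl2l11.

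The mature sequences show which arms share a seed, and they are printed from the RefSeq miRNA table of assembly GRCm38.p6, in which all 8 matched. Capitals mark the seed, and the prefix mmu stands for mouse.
mmu-miR-17-5p: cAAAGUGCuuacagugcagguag
mmu-miR-20a-5p: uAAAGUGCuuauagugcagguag
mmu-miR-106b-5p: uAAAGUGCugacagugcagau
mmu-miR-93-5p: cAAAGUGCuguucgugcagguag
mmu-miR-92a-3p: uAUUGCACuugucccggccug
mmu-miR-25-3p: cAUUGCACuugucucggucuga
mmu-miR-19b-3p: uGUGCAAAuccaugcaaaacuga
mmu-miR-106b-3p: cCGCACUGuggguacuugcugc
Of these arms, 4 carry the seed AAAGUGC, from both clusters. The seed AUUGCAC is shared by miR-92a-3p and miR-25-3p, again 1 from each cluster, while miR-19b-3p and miR-106b-3p have seeds of their own. Counted from the 5′ end without gaps, miR-25-3p differed from miR-92a-3p at 3 of 21 bases, by U1C, C14U and C18U (the base of miR-92a-3p first). miR-20a-5p differed from miR-17-5p at 2 of 23 bases, by C1U and C12U, and miR-93-5p from miR-17-5p at 4 of 23, all outside the seed.

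In GRCm38.p6 the 6 hairpins of miR-17-92 span 836 bases of chromosome 14 (chr14:115043671-115044506, plus strand), within an exon of the noncoding RNA gene Mir17hg in the 1 GENCODE M21 transcript that covers them. The 3 hairpins of miR-106b-25 span 498 bases of chromosome 5 (chr5:138165321-138165818, minus strand) and lie in introns of both protein-coding Mcm7 transcripts that span them. Mature miR-19b-3p and miR-92a-3p are also encoded with identical sequence on the X chromosome, by Mir19b-2 and Mir92-2 of the paralogous miR-106a-363 cluster, so their counts cannot be assigned to 1 locus. The deposited counts were made on the mm9 assembly, and no coordinate of the files was used.

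The libraries held between 267076 and 716473 miRNA counts. After scaling by trimmed mean of M-values (TMM), 1 count was worth between 1.52 and 3.15 CPM (normalised counts, as if the libraries had the same total). Where an arm had 0 counts, up to 3 counts were allowed, which is between 4.55 and 9.45 CPM. MiRNA counts were 12.3% and 10.6% of the mappable reads in ob/ob jejunum and colon, against 22.5% and 26.3% in ob/+ jejunum and colon. The labels describe no molecular identifiers, so a PCR duplicate may count again, and intervals and floors here reflect the error of counting alone. No miRNA is a defining marker of ICC, and Lep and Kit messenger RNA were not measured, so the data could check neither the cell type nor the genotype.

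The 2 clusters were minor constituents of the ICC miRNA pool, and in each cluster 1 arm with the seed AUUGCAC held most of the counts. The 8 arms together took 528 counts (0.122%) in ob/ob jejunum, 729 (0.156%) in ob/+ jejunum, 380 (0.142%) in ob/ob colon and 984 (0.137%) in ob/+ colon. The AAAGUGC arms, apart from miR-93-5p, were close to the limit of detection.

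miR-92a-3p was the most abundant arm in each library. It had 376 counts (892 CPM) in ob/ob jejunum and 486 counts (1109 CPM) in ob/+ jejunum. In colon it had 267 counts (841 CPM) in ob/ob and 673 counts (1021 CPM) in ob/+. By count it ranked between 50 and 55 among the entries detected in each library. miR-25-3p, which shares its seed, was second, with 109 counts (259 CPM) in ob/ob jejunum and 199 counts (454 CPM) in ob/+ jejunum. In ob/ob colon it had 82 counts (258 CPM), against 263 counts (399 CPM) in ob/+ colon. Both ob/ob libraries lay below both ob/+ libraries for each of these arms.

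miR-93-5p, an AAAGUGC arm, came next. It had 24 counts (56.9 CPM) in ob/ob jejunum and 12 counts (27.4 CPM) in ob/+ jejunum, and 15 counts (47.2 CPM) in ob/ob colon, against 14 counts (21.2 CPM) in ob/+ colon. Here both ob/ob libraries lay above both ob/+ libraries. The other 5 arms had no more than 10 counts in any library, and their exact Poisson intervals overlapped in each library.

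Of these, miR-106b-3p, the arm opposite to miR-106b-5p, had 6 and 7 counts in ob/ob and ob/+ jejunum and 5 and 10 counts in ob/ob and ob/+ colon, or between 14.2 and 16.0 CPM. miR-17-5p, an AAAGUGC arm, had 5 and 9 counts in ob/ob and ob/+ jejunum and 2 and 8 counts in ob/ob and ob/+ colon. miR-20a-5p had 4 and 9 counts in ob/ob and ob/+ jejunum and 5 and 3 counts in ob/ob and ob/+ colon. These 3 arms were therefore detected in each library, each on few counts.

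miR-19b-3p had 2 and 6 counts in ob/ob and ob/+ jejunum and 4 and 9 counts in ob/ob and ob/+ colon. miR-106b-5p had 2 and 1 counts in ob/ob and ob/+ jejunum and 0 and 4 counts in ob/ob and ob/+ colon. It was the 1 arm with no count in a library, and the 1 arm below the mean of 10 CPM required for testing.

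Ordered by mean CPM over the 4 libraries, the arms were miR-92a-3p (966), miR-25-3p (343), miR-93-5p (38.2), miR-106b-3p (15.3), miR-17-5p (12.7), miR-20a-5p (12.6), miR-19b-3p (11.2) and miR-106b-5p (3.27). The ranges over the libraries did not overlap between miR-92a-3p and miR-25-3p (841 to 1109 and 258 to 454 CPM), nor between miR-25-3p and miR-93-5p (21.2 to 56.9 CPM), nor between miR-93-5p and miR-106b-3p (14.2 to 16.0 CPM). From miR-106b-3p downward each neighbour in the order overlapped the next. All 8 mature arms are 21 to 23 nt long, so levels were not divided by length. Counts of different arms were not calibrated against known amounts of RNA.

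**Figure D1:**
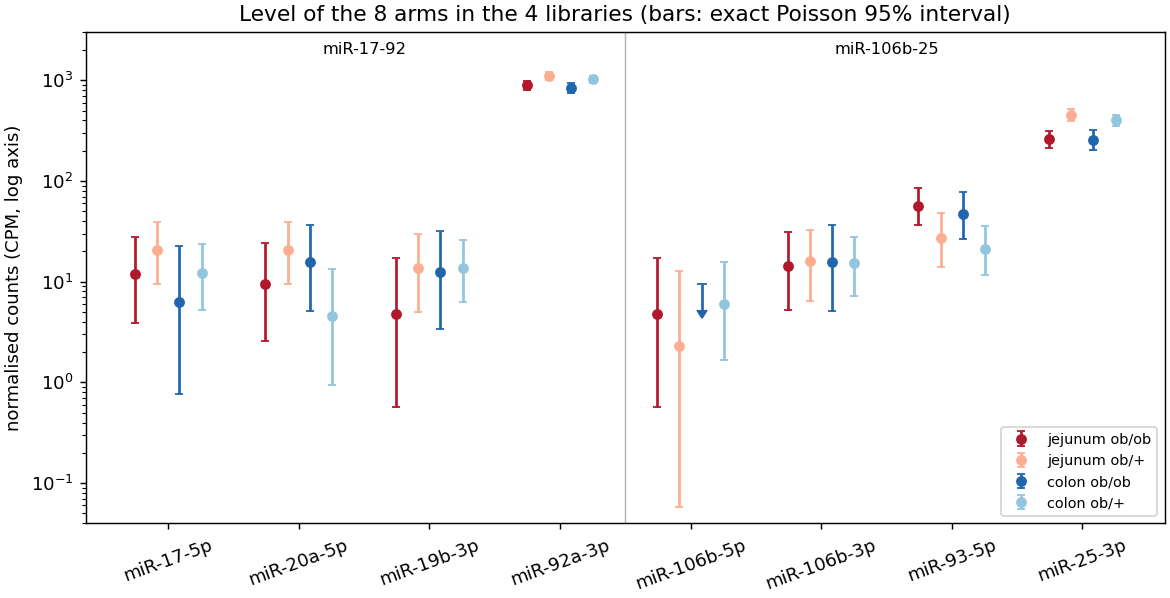
Normalised counts (CPM, log axis) of the 8 arms in the ob/ob and ob/+ libraries of jejunum and colon, with exact Poisson 95% intervals. For the 0 counts of miR-106b-5p in ob/ob colon, the arrow marks the floor of 3 counts, 9.45 CPM. The exact Poisson 95% upper bound there was 11.6 CPM. miR-92a-3p (841 to 1109 CPM) and miR-25-3p (258 to 454 CPM) stand far above the other 6 arms, of which miR-93-5p reached 56.9 CPM.

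Arms listed under the same cluster thus had very unequal counts. For each count of miR-17-5p there were 75.2 counts of miR-92a-3p in ob/ob jejunum and 54.0 in ob/+ jejunum, and 133.5 in ob/ob colon and 84.1 in ob/+ colon. miR-92a-3p took 97.2% of the counts of the 4 miR-17-92 arms in ob/ob jejunum (exact binomial 95% interval 94.97 to 98.6) and 95.3% in ob/+ jejunum (93.1 to 97.0). In colon its share was 96.0% in ob/ob (93.0 to 98.0) and 97.1% in ob/+ (95.6 to 98.2). These shares include any reads from the X-linked copy. The shares of miR-17-5p, miR-20a-5p and miR-19b-3p lay between 0.433% and 1.80% in the 4 libraries. In miR-106b-25 the corresponding arm, miR-25-3p, took 77.3% of the counts in ob/ob jejunum (69.5 to 83.9) and 90.9% in ob/+ jejunum (86.2 to 94.3). In colon it took 80.4% in ob/ob (71.4 to 87.6) and 90.4% in ob/+ (86.4 to 93.5).

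The summed miR-17-92 arms exceeded the summed miR-106b-25 arms by a factor of 2.74 in ob/ob jejunum and 2.33 in ob/+ jejunum. In colon the factor was 2.73 in ob/ob and 2.38 in ob/+. Both ob/ob values lay above both ob/+ values, a difference that was not tested. Grouped by seed over both clusters, the AUUGCAC arms outnumbered the AAAGUGC arms 13.9-fold in ob/ob jejunum and 22.1-fold in ob/+ jejunum, and 15.9-fold in ob/ob colon and 32.3-fold in ob/+ colon. The AUUGCAC share of both seeds was 93.3% in ob/ob jejunum (90.8 to 95.3) and 95.7% in ob/+ jejunum (93.9 to 97.0), and 94.1% in ob/ob colon (91.2 to 96.2) and 97.0% in ob/+ colon (95.7 to 98.0). The intervals of the genotypes overlapped in both tissues.

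The base composition of the abundant arms lay within the range of the scarce ones. G and C made up 57.1% of miR-92a-3p and 50.0% of miR-25-3p, against 63.6% of miR-106b-3p, 52.2% of miR-93-5p, 47.8% of miR-17-5p, 42.9% of miR-106b-5p and 39.1% each of miR-20a-5p and miR-19b-3p. The median of the 263 tested entries with a RefSeq sequence was 47.6%. Outside both clusters and their X-linked paralog, the entry with the highest level that carried a member's seed was miR-92b-3p, encoded on chromosome 3, with the sequence below (seed in capitals).
mmu-miR-92b-3p: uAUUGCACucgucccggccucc
It differed from miR-92a-3p at 2 of the 21 bases compared, by U10C and G21C (the base of miR-92a-3p first). It had 113 counts (268 CPM) in ob/ob jejunum and 108 counts (246 CPM) in ob/+ jejunum. In colon it had 78 counts (246 CPM) in ob/ob and 121 counts (184 CPM) in ob/+. The other 2 such entries, miR-32-5p and miR-6383, had 1 count each over all libraries.

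Which arm of a hairpin had more counts differed between members. Of the 5 hairpins compared, the 2 in which the 3p arm prevailed are printed with both mature arms in capitals, the 5p arm first.
Mir106b: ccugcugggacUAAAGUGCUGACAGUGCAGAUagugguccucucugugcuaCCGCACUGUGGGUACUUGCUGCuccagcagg
Mir25: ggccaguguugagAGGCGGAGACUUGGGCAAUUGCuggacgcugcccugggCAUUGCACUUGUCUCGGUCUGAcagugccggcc
For miR-106b the 3p arm prevailed: summed over the 4 libraries there were 7 counts of the 5p arm and 28 of the 3p arm, a 5p share of 20.0% (exact binomial 95% interval 8.44 to 36.9). The 3p arm was the higher one in each of the 4 libraries. For miR-17 and miR-20a the 5p share was 82.8% (64.2 to 94.2) and 80.8% (60.6 to 93.4), and for miR-93 it was 89.0% (79.5 to 95.1). For miR-25 the 3p arm prevailed, with 653 counts against 18 of miR-25-5p.

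**Figure D2:**
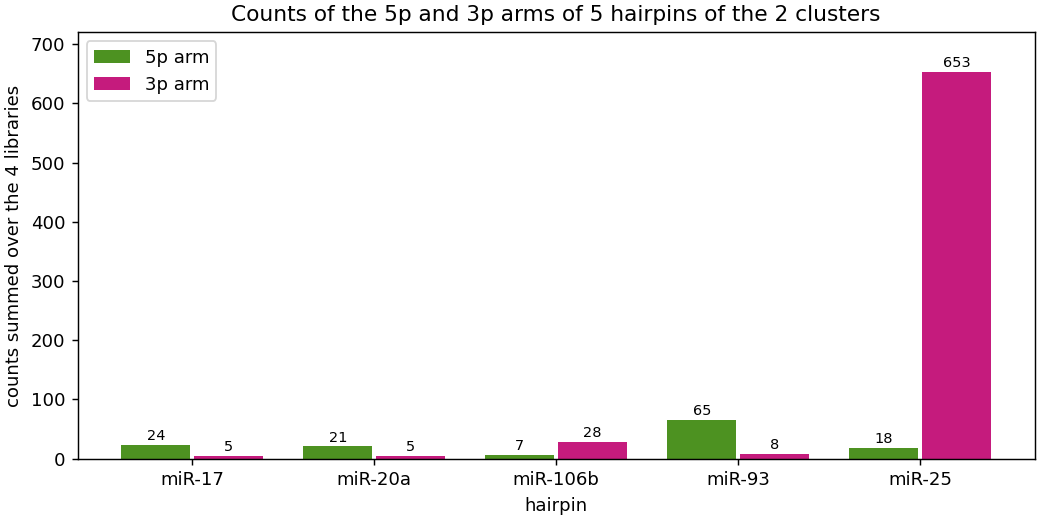
Counts summed over the 4 libraries (vertical axis) of the 5p arm (left bar) and the 3p arm (right bar) of 5 hairpins. The 3p arm prevailed in miR-106b (28 against 7 counts) and miR-25 (653 against 18), and the 5p arm in miR-17 (24 against 5), miR-20a (21 against 5) and miR-93 (65 against 8).

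The list of the remaining arms of both clusters and of the X-linked paralog held 20 names, of which 11 had a row in the table; the other 9 were not analysed here. None of the 11 exceeded 7 counts in a library, and 9 stayed below 5 counts throughout. The 1 arm that reached the level required for testing was miR-25-5p. miR-19a-3p, which is nearly the same as miR-19b-3p, had 2 counts in ob/+ jejunum and none elsewhere. miR-18a-3p had 1 count, in ob/ob colon. Arms that come from the X-linked hairpins alone were miR-20b-3p (1 count over all libraries), miR-92a-2-5p (1) and miR-363-3p (4), and miR-92a-1-5p, which comes from the chromosome 14 hairpin alone, had 2. These counts were too few to split miR-92a-3p between its loci.

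The main comparison asked whether the arms differed between leptin-deficient and heterozygous ICC over both tissues. miR-93-5p had a higher level and miR-25-3p a lower level in both ob/ob libraries, and neither passed the test; none of the 7 tested arms did. The test was edgeR's quasi-likelihood test, with a tissue term, on the 322 entries that averaged 10 CPM or more, with Benjamini-Hochberg adjustment and a threshold of 0.05. It called 0 of the 7 arms, as did DESeq2 and limma-voom, and 18.3% of all entries tested, 8.07% as higher and 10.2% as lower in ob/ob. At an unadjusted p under 0.05 it gave 2 of the 7 arms, miR-25-3p and miR-93-5p, against 40.7% of all entries tested; limma-voom gave 2 of the 7 and DESeq2 gave 0. The residual had 1 degree of freedom, and each SE below is the absolute log2 change divided by the square root of the F statistic.

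For miR-25-3p the log2 change of ob/ob over ob/+ was -0.72 ± 0.24 (SE; 95% interval -1.35 to -0.09; edgeR unadjusted p = 0.0326, adjusted p = 0.0995). Within jejunum the log2 ratio was -0.80 (exact conditional 95% interval -1.16 to -0.47), and within colon it was -0.62 (-1.004 to -0.27). The level was lower in 2 of 2 ob/ob libraries. The adjusted p of this arm crossed the threshold with the authors' factors (0.0453), at a minimum of 100 CPM (0.0496), with no tissue term (0.0408), without the ob/+ colon library (0.0375) and scaled to mappable reads (6.23e-06), and ranged up to 0.302 with no abundance filter. With library totals in place of TMM scaling its log2 change shrank to -0.51 (edgeR adjusted p = 0.212). The authors' deposited table gave a ratio of ob/ob over ob/+ of 0.524 in jejunum and 0.684 in colon for this arm.

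For miR-93-5p the log2 change was 1.09 ± 0.37 (95% interval 0.13 to 2.06; edgeR unadjusted p = 0.0332, adjusted p = 0.0995). Within jejunum the log2 ratio was 0.95 (0.00025 to 2.19), and the colon pair gave 1.01 (0.00054 to 2.31), higher in 2 of 2 ob/ob libraries. Leaving out hairpin entries gave an adjusted p of 0.0374; the other alternatives that tested this arm gave between 0.0557 and 0.723, the highest scaled to mappable reads, where the log2 change was 0.23. The authors' deposited table gave ratios of 1.91 in jejunum and 2.35 in colon.

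miR-92a-3p had a log2 change of -0.30 ± 0.21 (95% interval -0.84 to 0.24, edgeR adjusted p = 0.343). The jejunum pair gave a log2 ratio of -0.31 (-0.51 to -0.12) and the colon pair one of -0.28 (-0.49 to -0.07), and the colon value turned to 0.09 with library totals alone. Scaled to mappable reads its log2 change was -1.17 (edgeR adjusted p = 0.000210). That scaling shifted the median log2 change of all 322 entries to -0.96, against -0.09 with TMM factors, so relative to the median both miR-92a-3p and miR-25-3p stood about as before. The authors' deposited table gave ratios of 0.740 and 0.870 for miR-92a-3p in jejunum and colon.

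The low arms could not be told apart from 0 change in either direction. miR-17-5p had a log2 change of -0.83 ± 0.59 (95% interval -2.37 to 0.71, edgeR adjusted p = 0.349). For miR-19b-3p it was -0.68 ± 0.70 (-2.49 to 1.14, edgeR adjusted p = 0.514). For miR-20a-5p it was 0.07 ± 0.86 (-2.18 to 2.32) and for miR-106b-3p -0.05 ± 0.53 (-1.43 to 1.32), with adjusted p of 0.956 and 0.942 in edgeR. These intervals allow changes of more than 2-fold in both directions for miR-20a-5p, miR-106b-3p and miR-19b-3p, so counts of this size do not show that the arms were alike in both genotypes.

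Summed over its 4 arms, miR-17-92 had 387 counts (918 CPM) in ob/ob jejunum and 510 counts (1164 CPM) in ob/+ jejunum, a log2 ratio of -0.34 (-0.54 to -0.15). In colon it had 278 counts (875 CPM) in ob/ob and 693 counts (1052 CPM) in ob/+, a log2 ratio of -0.26 (-0.47 to -0.06), which turned to 0.11 with library totals alone. The sum of the 4 miR-106b-25 arms was 141 counts (335 CPM) in ob/ob jejunum and 219 counts (499.7 CPM) in ob/+ jejunum, a log2 ratio of -0.58 (-0.89 to -0.27). In colon that sum was 102 counts (321 CPM) in ob/ob and 291 counts (442 CPM) in ob/+, a log2 ratio of -0.46 (-0.80 to -0.13). Each sum follows its AUUGCAC arm, which holds most of its counts.

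Over the 7 tested arms the median log2 change was -0.30, beside -0.09 over all 322 entries, with 5 arms below 0 and 2 above. Counts of 2-fold differences used log2 ratios with a prior count of 2, which draws low counts toward no change. Within jejunum 0 of 7 arms were at least 2-fold higher (14.9% of all entries tested) and 0 at least 2-fold lower (18%). In plain CPM, miR-93-5p was over 2-fold higher there (56.9 in ob/ob, 27.4 in ob/+). Plain CPM were over 2-fold lower in ob/ob jejunum for miR-20a-5p (9.49 against 20.5) and miR-19b-3p (4.74 against 13.7). Within colon 2 of 7 were at least 2-fold higher, miR-93-5p and miR-20a-5p (17.7% of all entries), and 0 at least 2-fold lower (17.1%). The same-seed miR-92b-3p had a log2 change of 0.27 ± 0.26 (edgeR adjusted p = 0.483).

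**Figure D3:**
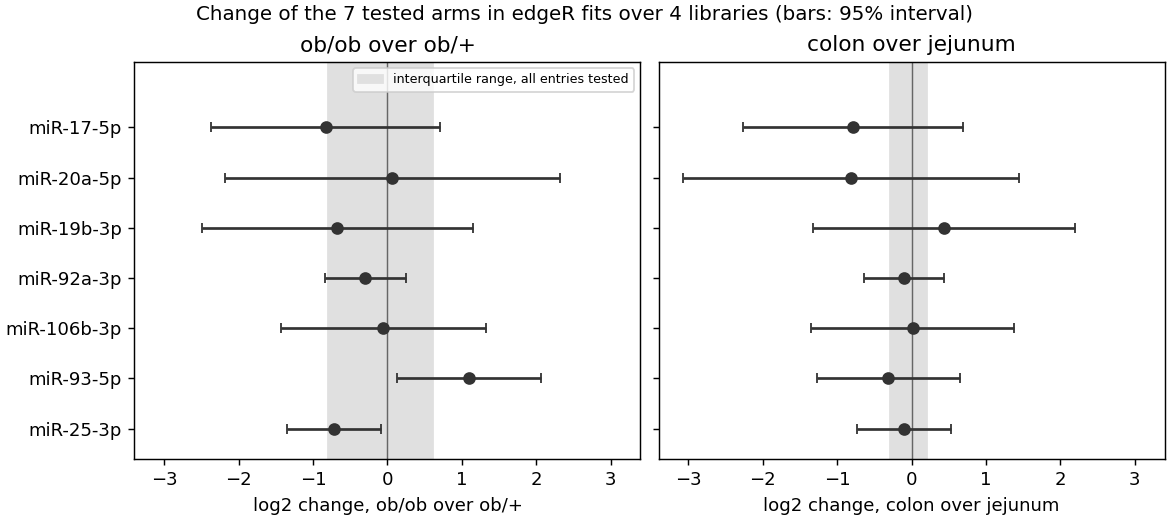
Log2 change of the 7 tested arms for ob/ob over ob/+ (left) and colon over jejunum (right) from the edgeR fits over 4 libraries, with 95% intervals; the grey band is the interquartile range of all 322 entries tested. On the left miR-93-5p (1.09) lies to the right of 0 and miR-25-3p (-0.72) to the left, and on the right each interval includes 0.

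miR-93-5p and miR-25-3p come from neighbouring hairpins of the same cluster, and the share of each in their joint counts does not depend on library scaling. Among the counts of both arms, miR-93-5p made up 18.0% in ob/ob jejunum (exact binomial 95% interval 11.9 to 25.6) and 5.69% in ob/+ jejunum (2.97 to 9.72). In colon its share was 15.5% in ob/ob (8.92 to 24.2) and 5.05% in ob/+ (2.79 to 8.33). Within each tissue the ob/ob interval lay above the ob/+ interval, while those of ob/ob colon and ob/+ jejunum overlapped. The share averaged 16.8% ± 1.83 in ob/ob and 5.37% ± 0.448 in ob/+ (SD, n = 2 libraries each). An exact two-sided permutation test over the libraries gave p = 0.333, the smallest that 2 against 2 allow. This share was computed after the levels of both arms had been seen.

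The other arm of miR-25, unlike miR-25-3p, had a higher level in both ob/ob libraries. miR-25-5p had 6 counts in ob/ob jejunum and 1 in ob/+ jejunum, and 7 in ob/ob colon and 4 in ob/+ colon. It passed the filter of 10 CPM only through the ob/ob libraries. Its levels were 14.2 and 22.0 CPM in ob/ob jejunum and colon, against 2.28 and 6.07 CPM in ob/+. The fit gave a log2 change of 2.03 ± 0.68 (edgeR adjusted p = 0.0995), in the direction that this filter favours, so it gives no separate support. Of the counts of both miR-25 arms, miR-25-5p made up 5.22% in ob/ob jejunum (1.94 to 11.0) and 0.5% in ob/+ jejunum (0.0127 to 2.75). In colon it made up 7.87% in ob/ob (3.22 to 15.5) and 1.498% in ob/+ (0.410 to 3.79). The intervals overlapped in both tissues.

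**Figure D4:**
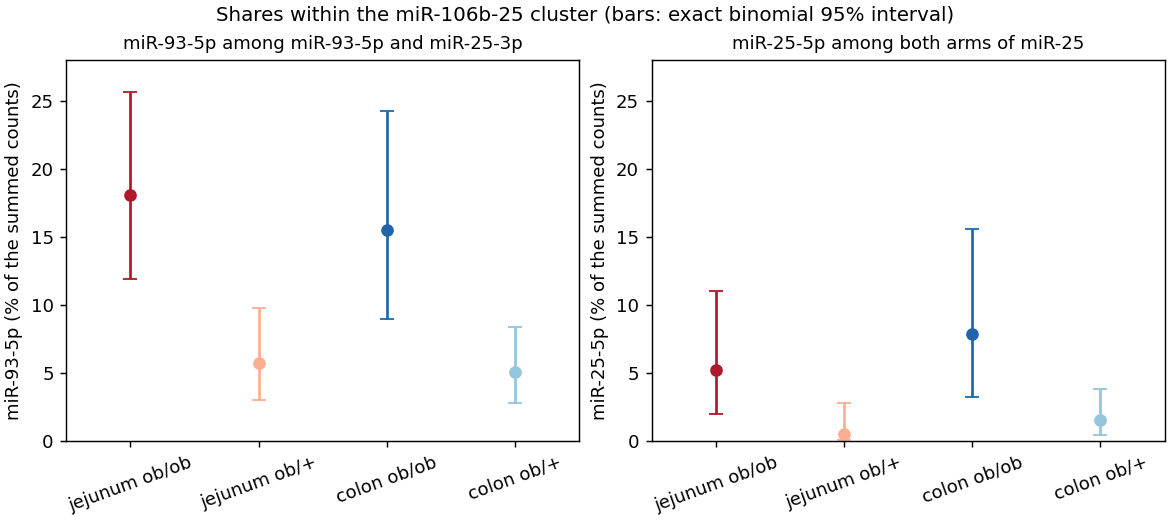
Percent of miR-93-5p among the counts of miR-93-5p and miR-25-3p (left) and of miR-25-5p among the counts of both miR-25 arms (right) in each library, with exact binomial 95% intervals. On the left the ob/ob libraries stand at 18.0% and 15.5% and the ob/+ libraries at 5.69% and 5.05%; on the right the intervals of the genotypes overlap.

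Of the marker lists of 9 other cell types, some had summed levels on the same side in both tissues and some did not (no test was run on these sums). The 5 leukocyte markers with a row (of 7 listed) summed to 1390 and 1030 CPM in ob/ob jejunum and colon, against 751 and 688 CPM in ob/+. Their directions differed. The log2 change of ob/ob over ob/+ was 0.80 ± 0.24 for miR-342-3p and 1.53 ± 0.33 for miR-342-5p. It was -0.90 ± 0.39 for miR-155-5p, -0.47 ± 0.60 for miR-150-5p and -0.05 ± 0.99 for miR-223-3p. The list named miR-142a-5p, so the entry miR-142-5p (log2 change 1.05 ± 0.37) was not summed. The 8 epithelial markers summed to 356 and 283 CPM in ob/ob jejunum and colon, against 2088 and 897 CPM in ob/+, with 2 of the 8 at 0 in each ob/ob library. The 5 fibroblast markers with a row summed to 963 and 888 CPM in ob/ob, against 4812 and 5001 CPM in ob/+, with 1 at 0 in each ob/ob library. The 3 smooth muscle markers summed to 345694 and 244387 CPM in ob/ob, against 250776 and 211812 CPM in ob/+. The 2 erythroid markers with a row (of 4 listed) were at 0 in both ob/ob libraries and summed to 18.3 and 9.11 CPM in ob/+. The entry miR-486-5p, whose name was not on that list, was not summed. It was present, with a log2 change of ob/ob over ob/+ of 0.44 ± 0.20 (edgeR adjusted p = 0.172). The 1 hepatocyte marker had 23.7 and 28.3 CPM in ob/ob, against 434 and 190 CPM in ob/+. The 2 endocrine markers summed to 1030 and 1017 CPM in ob/ob, against 824 and 583 CPM in ob/+, but went opposite ways. For miR-375-3p the log2 change of ob/ob over ob/+ was -2.90 ± 0.59 (edgeR adjusted p = 0.0357). For miR-7a-5p it was 0.70 ± 0.23 (edgeR adjusted p = 0.0941). The genotypes overlapped in the sum of the 6 neuron and glia markers, with 377 and 406 CPM in ob/ob jejunum and colon, against 402 and 376 CPM in ob/+. The directions of its tested markers differed. The log2 change of ob/ob over ob/+ was -1.82 ± 0.50 for miR-9-3p, -0.65 ± 0.35 for miR-124-3p and -0.23 ± 0.30 for miR-128-3p. Above 0 were miR-338-3p (1.10 ± 0.40) and miR-9-5p (0.47 ± 0.30). The genotypes also overlapped in the sum of the 2 endothelial markers, with 441 and 523 CPM in ob/ob, against 616 and 469 CPM in ob/+. The part of these cells in the values of miR-93-5p and miR-25-3p was not tested, and in pooled RNA fewer cells of a type cannot be told apart from less RNA per cell.

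No arm passed the test between colon and jejunum. With genotype as a term, edgeR called 0 of the 7 arms and 0% of all 322 entries; at an unadjusted p under 0.05 it gave 0 of the 7 arms, as did DESeq2 and limma-voom, and 4.04% of all entries. The log2 change of colon over jejunum was -0.10 ± 0.21 for miR-92a-3p (95% interval -0.64 to 0.44), -0.10 ± 0.24 for miR-25-3p (-0.73 to 0.53) and -0.31 ± 0.37 for miR-93-5p (-1.27 to 0.65). The low arms had wider intervals, from -3.07 to 1.44 for miR-20a-5p and from -2.27 to 0.69 for miR-17-5p.

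The 2-fold counts between tissues also used a prior count of 2. Within ob/ob mice 0 of the 7 arms then differed 2-fold between colon and jejunum. Of all entries, 5.28% were at least 2-fold higher and 2.8% at least 2-fold lower in ob/ob colon. In plain CPM, miR-19b-3p was over 2-fold higher in ob/ob colon (12.6 CPM on 4 counts) than in ob/ob jejunum (4.74 CPM on 2 counts). Within ob/+ mice 1 arm, miR-20a-5p, was at least 2-fold lower in colon (8.07% of all entries) and 0 higher (3.73%). That arm had 3 counts in ob/+ colon, against 9 in ob/+ jejunum, a log2 ratio of -1.48 (exact conditional 95% interval -4.69 to -0.17). In ob/ob it had 5 counts in colon and 4 in jejunum.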

How the data were processed

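Per the file headers, adapters were trimmed, reads shorter than 15 nt were dropped, and the remaining mappable reads were matched to miRBase 20 on mm9. The sources used here do not give an aligner, a counter or a scaling rule. The deposited estimated counts were rounded to whole numbers (those of the 8 arms were whole already). The authors' normalized values are a signal, the counts times 1 factor per library, used only for those factors. The authors' deposited ratio of ob/ob over ob/+ is quoted where named, and other values of theirs, the read numbers per step, gave the mappable reads. Columns named SI were matched to jejunum. TMM scaling, edgeR 4.0.16 (prior degrees of freedom 3.80), limma 3.58.1 and DESeq2 1.42.0 were used. The edgeR fits were also run on simulated counts, drawn with the same spread setting for all entries. That run does not check the p-values of the real pools, whose spread may differ between entries. Log2 ratios of single arms used a prior count of 2, and those of summed arms used none. The exact conditional intervals used counts without a prior, so at low counts a ratio and its interval rest on different values. Named were the 8 arms, the other arms of both clusters and the X-linked paralog, entries sharing a seed with them, and per cluster the 3 most similar entries. Members and lists were chosen with earlier results of these data known. With 1 library per group, the p-values measure the spread left after both terms, which may be technical. Alternatives were other scalings (library totals, median-of-ratios, mappable reads, the authors' factors), other filters, no hairpin entries, DESeq2, limma-voom, no second term, each library left out, prior counts of 0.5 and 5, and unrounded counts.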

Additional observations from a re-analysis of the deposited data

Results flagged for a closer look

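miR-20a-5p had ratios of opposite sign in the 2 tissues: the log2 ratio of ob/ob over ob/+ was -0.85 in jejunum (4 counts in ob/ob, 9 in ob/+) and 1.17 in colon (5 counts in ob/ob, 3 in ob/+). Both counting intervals include 0 (-3.27 to 0.73 in jejunum, -0.57 to 4.48 in colon), and the difference between the tissues was not tested, since 1 library per combination leaves no residual for it. miR-106b-3p also had opposite signs, with log2 ratios of -0.13 in jejunum (6 counts in ob/ob, 7 in ob/+) and 0.0413 in colon (5 counts in ob/ob, 10 in ob/+), which was not tested either. Its counting intervals were -2.01 to 1.63 and -1.85 to 1.74.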

How the results depend on the processing

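The direction and the call of most results held. For ob/ob over ob/+, 74 of 90 values of single arms kept both, 7 crossed the threshold and 9 turned sign; for colon over jejunum 79 of 93 kept both and 14 turned sign; the cause was not tested. The number of arms called by genotype was 0 as reported, 2 scaled to mappable reads (miR-92a-3p and miR-25-3p), and 1 each with the authors' factors, at 100 CPM or more, with hairpin entries left out and with no tissue term; leaving out a library gave 0 to 1. Over the whole table the genotype calls numbered 59, against 115 with median-of-ratios factors, 177 scaled to mappable reads, 121 with the authors' factors, 2 with no abundance filter, 111 with hairpin entries left out and 34 with limma-voom. Leaving out a library gave 2 to 89: 2 without ob/ob jejunum, 2 without ob/ob colon, 89 without ob/+ jejunum and 72 without ob/+ colon. Higher and lower calls were 26 and 33 as reported, 44 and 28 with library totals, and 19 and 158 scaled to mappable reads. The tissue calls numbered 0, and 2 with median-of-ratios factors, the authors' factors or hairpin entries left out.

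For genotype, miR-106b-3p turned to 0.15 with library totals, 0.0520 with hairpin entries left out, 0.0373 in DESeq2, and 0.00279 to 0.106 (0.0197 between) with 1 library left out. miR-20a-5p turned to -0.78 scaled to mappable reads and to -0.73 and -0.14 without ob/+ and ob/ob colon. Leaving out 1 library also moved genotype changes that kept their sign by over 1.5 times: miR-20a-5p ranged over -0.73 to 1.503 (0.07 as reported), the highest without ob/+ jejunum. miR-17-5p ranged over -1.30 to -0.22 (-0.83 as reported), with -0.22 without ob/+ jejunum, -0.28 without ob/ob colon and -1.30 without ob/ob jejunum. miR-19b-3p ranged over -1.36 to -0.12 (-0.68 as reported), with -1.36 without ob/ob colon and -0.12 without ob/ob jejunum. miR-92a-3p ranged over -0.36 to -0.10 (-0.30 as reported), with -0.10 without ob/+ jejunum and -0.13 without ob/ob colon. The ranges were -0.81 to -0.49 for miR-25-3p and 0.93 to 1.43 for miR-93-5p. The tissue changes moved as much, over -1.06 to 0.29 for miR-93-5p, -0.46 to 0.28 for miR-25-3p and -1.72 to 0.0642 for miR-20a-5p.

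For tissue, miR-92a-3p turned to 0.0231 with library totals, 0.0311 scaled to mappable reads and 0.00116 without ob/+ jejunum. miR-25-3p turned to 0.0178 with library totals, 0.0359 scaled to mappable reads, and 0.28 and 0.12 without ob/+ jejunum and ob/ob colon. miR-106b-3p turned to -0.00259 with median-of-ratios factors, and to -0.0491 and -0.0541 without ob/ob jejunum and ob/ob colon. With a library left out, miR-19b-3p turned to -0.0521 (ob/ob jejunum), miR-93-5p to 0.29 (ob/ob jejunum) and 0.16 (ob/+ colon), and miR-20a-5p to 0.0642 (ob/+ colon). Within colon, library totals turned the log2 ratio of miR-92a-3p to 0.0895 and of the miR-17-92 sum to 0.11, and moved that of the miR-106b-25 sum to -0.0888. Scaled to mappable reads, the miR-17-92 sum gave -1.16 in jejunum and -1.20 in colon, and the miR-106b-25 sum -1.40 and -1.39. The colon over jejunum ratio of the miR-17-92 sum moved to 0.22 in ob/ob with library totals and to 0.0436 in ob/+ scaled to mappable reads.

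The tissue term pairs the ob/ob and ob/+ libraries of each tissue; the labels give no replicate numbers, so no further block was fitted. A fit with a library left out has 1 residual degree of freedom and takes the lone library to vary like the others. Depth limits 5 of the 8 arms, which had no more than 10 counts in any library.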

Other observations

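The entries whose pattern over the 4 libraries came closest to that of the clusters were sought among the 147 entries that averaged 100 CPM or more, by the root mean square difference of centred log2 CPM. For miR-17-92 they were miR-126a-3p (0.0734), an endothelial miRNA, miR-382-5p (0.0996) and miR-139-5p (0.163). miR-126a-3p had 330 CPM in ob/ob jejunum and 520 CPM in ob/+ jejunum, and 419 CPM in ob/ob colon and 369 CPM in ob/+ colon. The cluster's own 4 arms lay farther from their mean, at 0.181 for miR-92a-3p and between 0.318 and 0.429 for the other three. For miR-106b-25 they were miR-361-5p (0.0554), miR-28a-3p (0.0778) and miR-22-3p (0.0882), against 0.149 for miR-106b-3p and between 0.357 and 0.526 for the cluster's other arms. With 4 libraries as points these distances are a description, and the mean profiles give each arm the same weight, whatever its count. The named entries were picked as the closest of the 147, all at 100 CPM or more. Of the 8 arms, 5 had no more than 10 counts in any library, so counting error alone sets them apart. The distances therefore cannot show whether the arms of a cluster vary together.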
